A study of Mus musculus with 2 samples.

Results

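The 10 genes described here encode the inhibitory receptor CTLA-4 and receptors and ligands of the same costimulatory and checkpoint system. They were taken by symbol from a deposited table of 23997 gene rows, and all 10 were found there and reached a mean of 0.5 FPKM, a level of RNA corrected for transcript length and for the size of the library, the minimum for a comparison. The list was chosen by symbol around Ctla4, which was selected on its high ratio of FPKM between these same libraries, so the values of the members are a description and support nothing.

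Polyadenylated RNA was sequenced from medullary thymic epithelial cells (mTECs) of C57BL/6 mice that had been sorted for high surface MHC class II. There were 2 libraries, 1 with the genotype WT and 1 with the genotype Aire-/-, called the library labelled Aire-KO below, and each came from pooled mice. Not given in the sources used here: how many mice were pooled, how old they were, their sex, and how Aire was altered. Aire RNA was higher and not lower, at 220.6 FPKM in the WT library and 640.2 FPKM in the other. Without knowing how Aire was altered, its RNA level cannot check the label. Directions below are therefore between libraries as labelled. Pairs of values give the library labelled WT first. No difference has a replicate check or a test between genotypes, since each genotype has a single library, and every interval below is a 95% interval that covers counting error only.

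T cells read an antigen together with signals from the B7 family of surface proteins. CD80 and CD86 on the presenting cell engage CD28, which promotes activation, or CTLA-4, which binds the same ligands more tightly and can strip them from the presenting cell. PD-L1 and PD-L2 engage the inhibitory receptor PD-1, and ICOS ligand engages ICOS. mTECs carry CD80 and CD86, and these signals take part in the deletion of self-reactive thymocytes and in the making of regulatory T cells.

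Ctla4 (chromosome 1, 60909025 to 60915832, mm10) has 2 transcripts in the deposited isoform table, and the bases at their exon junctions tell them apart. NM_009843 has 4 exons and a coding sequence of 669 bases. NM_001281976 has 3 exons, omits exon 3 of the former (60913219 to 60913328, 110 bases, all coding) and has a coding sequence of 522 bases. Exon 3 encodes the membrane-spanning part, so the shorter form is known as soluble CTLA-4. The junctions that differ are shown with the upstream exon in lower case and the downstream exon in capitals, 15 bases of each, from GENCODE M21 transcripts on the same build.

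NM_009843, exon 2 to exon 3: agatttatgtcattgATCCAGAACCATGCC
NM_009843, exon 3 to exon 4: tctttgagcaagatgCTAAAGAAAAGAAGT
NM_001281976, exon 2 to exon 4: agatttatgtcattgCTAAAGAAAAGAAGT

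NM_009843 measured 11.1 FPKM in the library labelled WT, against 83.4 FPKM in the one labelled Aire-KO. NM_001281976 was listed at 0 in both libraries. The whole of the gene's value was therefore assigned to the form that holds exon 3, a share of 100% in each library. How the authors' tool split reads between these transcripts carries an error that was not measured.

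The promoters of Ctla4 and Icosl, the members with the highest ratios, are shown because both genes were higher in the library labelled Aire-KO while their sequences differ in composition. Each window runs from 250 bases before to 50 bases after the transcript start and comes from RefSeq on GRCm38.p6, which is the build mm10. Capitals mark the kappaB pattern (GGG, any 5 bases, CC) on either strand, a loose form of the site that NF-kappaB binds.

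Ctla4, chr1:60908775-60909074, plus strand: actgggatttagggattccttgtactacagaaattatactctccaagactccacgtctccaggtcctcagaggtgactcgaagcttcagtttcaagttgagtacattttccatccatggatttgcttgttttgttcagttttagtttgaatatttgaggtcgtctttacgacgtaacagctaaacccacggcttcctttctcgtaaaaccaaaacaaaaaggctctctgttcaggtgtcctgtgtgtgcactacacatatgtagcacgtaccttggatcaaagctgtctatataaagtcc
Icosl, chr10:78069118-78069417, plus strand: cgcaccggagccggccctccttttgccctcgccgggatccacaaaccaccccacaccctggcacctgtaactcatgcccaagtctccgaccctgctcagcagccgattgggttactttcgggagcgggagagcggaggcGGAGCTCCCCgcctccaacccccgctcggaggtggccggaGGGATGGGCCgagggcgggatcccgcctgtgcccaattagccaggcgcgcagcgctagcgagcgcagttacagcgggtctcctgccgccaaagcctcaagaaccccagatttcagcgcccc

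The Icosl window holds 26 CpG dinucleotides at 68.0% GC, against a median of 7 CpG and 52.7% GC over 32817 mouse promoter windows. The Ctla4 window holds 8 CpG at 42.0% GC. The kappaB pattern matched 2 times in the Icosl window, at -111 and -71 from the start, and did not match in the Ctla4 window. It occurs in 50.8% of all windows, so a match is common. Of the 7 members with a window in the table, 3 held it, namely Icosl, Cd80 and Pdcd1lg2. The letters TATAAA, searched on both strands, are found in 13.6% of all windows and lie in the Ctla4 window at +41.

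Of the 10 members, 3 were at least 2-fold higher in the library labelled Aire-KO, 1 was at least 2-fold lower, and 6 were neither. This rule of size compares FPKM + 0.1 at a mean of 0.5 FPKM or more. Among all 15906 genes at that minimum, 7.09% were higher and 20.5% lower. The higher members were Ctla4, Icosl and Cd28, and the lower member was Vtcn1. Vtcn1 reached the minimum only through the library labelled WT, so its call follows in part from that minimum. The median log2 ratio of the members was 0.58, against 0.05 over all genes compared. With other settings 5 members were higher and 2 lower at 1.5-fold (19.3% and 26.8% of all genes), and 1 was higher and 1 lower at 4-fold (0.629% and 11.9%). With 1 FPKM added 2 were higher and 1 lower (4.41% and 15.2%), and at a mean of 2 FPKM or more 2 were higher and 0 lower (6.95% and 14.3%). Centred on the median ratio, 3 were higher and 2 lower (6.28% and 21.2%), as with equal FPKM sums (6.17% and 21.7%). In the plot of FPKM by gene, Ctla4, Icosl and Vtcn1 show the widest gaps between libraries.

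**Figure D1:**
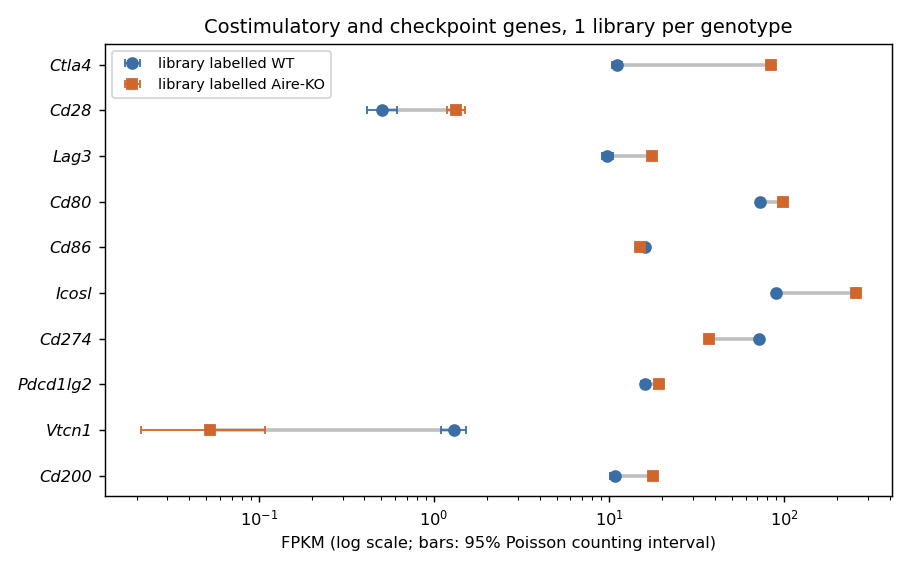
FPKM of the 10 genes on a log axis in the library labelled WT (circles) and the library labelled Aire-KO (squares), with 95% Poisson counting intervals as bars. Ctla4 stands at 11.1 and 83.4 FPKM and Icosl at 89.3 and 256 FPKM, whereas Cd86 stands at 16.0 and 14.97 FPKM.

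Among the receptors, Ctla4 measured 11.1 FPKM (10.4 to 11.9) in the library labelled WT, against 83.4 FPKM (81.5 to 85.2) in the one labelled Aire-KO. These values rest on an estimated 919 and 7929 fragments and differ 7.498-fold, a log2 ratio of 2.91 (2.81 to 3.01). The gene moved from the 58.3rd to the 93.0th percentile of expression among the genes compared. Its ratio ranked 11 among the 7193 genes that average at least 10 FPKM. No stretch of 50 bases of either Ctla4 transcript occurs in a transcript of another gene in GENCODE M21.

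Cd28 (chromosome 1, 60746388 to 60773359), the activating receptor for the same ligands, was much weaker. It measured 0.505 FPKM (0.413 to 0.617) in the library labelled WT, against 1.33 FPKM (1.19 to 1.49) in the one labelled Aire-KO, on 100 and 305 fragments. The log2 ratio was 1.40 (1.07 to 1.74), or 1.24 with 0.1 FPKM added, and only 0.63 with 1 FPKM added, which is under the 2-fold rule. Per unit of transcript length, Ctla4 exceeded Cd28 22.0-fold in the library labelled WT, against 62.5-fold in the one labelled Aire-KO. Cd28 and Ctla4 are neighbours, 135665 bases apart, and Icos, the next costimulatory receptor gene in the cluster, lies 44940 bases beyond Ctla4. Icos stood at 1.18 and 1.04 FPKM, neither higher nor lower. Within this cluster of 3 receptor genes, Ctla4 had the highest level in each library. It also had the highest ratio, the trait on which it was selected.

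Lag3 (chromosome 6, 124904359 to 124911705) encodes an inhibitory receptor that binds MHC class II. It stood at 9.76 FPKM (9.11 to 10.4) and 17.6 FPKM (16.7 to 18.4), a log2 ratio of 0.85 (0.73 to 0.97), short of 2-fold. Its neighbour Cd4, which encodes a coreceptor for the same ligand and lies 16111 bases away, stood at 7.57 and 6.68 FPKM. The neighbour on the other side, Ptms, stood at 273 and 336 FPKM. Of the 50-base stretches of Lag3, 0.922% occur in transcripts of other genes.

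**Figure D2:**
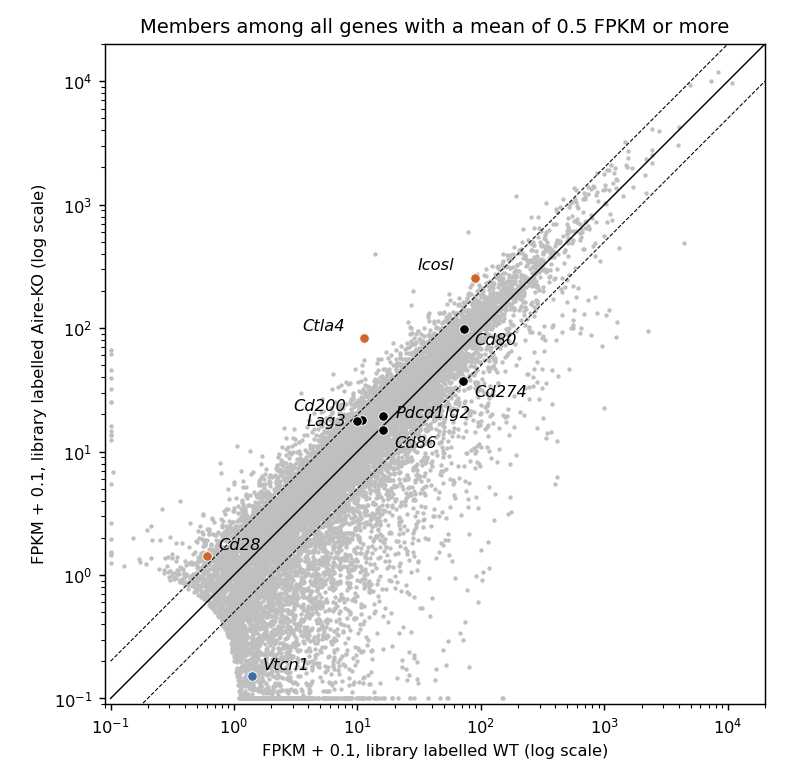
FPKM + 0.1 in the library labelled WT (horizontal) and the library labelled Aire-KO (vertical), both on log axes, for the 15906 genes compared (grey) and the 10 members (orange, higher; blue, lower; black, neither). Ctla4 and Icosl lie above the upper dashed 2-fold line, Cd274 lies just inside the lower dashed line, and Vtcn1 lies near the bottom edge.

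Of the ligands of CTLA-4 and CD28, Cd80 (chromosome 16, 38458933 to 38486932) measured 72.7 FPKM (70.7 to 74.7) in the library labelled WT, against 97.8 FPKM (95.7 to 100.0) in the one labelled Aire-KO. The log2 ratio was 0.43 (0.38 to 0.48). Cd86 (chromosome 16, 36603869 to 36666077) stood at 16.0 FPKM (15.3 to 16.8) and 14.97 FPKM (14.3 to 15.7), a log2 ratio of -0.10 (-0.19 to -0.01). Neither ligand gene reached 2-fold. Cd80 exceeded Cd86 by 4.53-fold and 6.53-fold in these libraries.

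Ctla4 stood in a different proportion to its ligand genes in each library. Ctla4 equalled 0.125 of the summed FPKM of Cd80 and Cd86 in the library labelled WT (88.7 FPKM) and 0.739 of it in the library labelled Aire-KO (113 FPKM). Against Cd80 alone the proportions were 0.153 and 0.852. These are proportions of RNA per transcript length, and protein was not measured.

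Icosl (chromosome 10, 78069368 to 78079525), the ICOS ligand gene, was the most expressed member in both libraries. It stood at 89.3 FPKM (87.7 to 91.0) and 256 FPKM (253 to 258), on 11109 and 36776 fragments. The log2 ratio was 1.52 (1.49 to 1.55). Its promoter was the CpG-rich window printed above. Icosl made up 33.4% of the summed FPKM of 6 B7 ligand genes in the library labelled WT, against 60.2% in the one labelled Aire-KO, a sum of 267 and 425 FPKM over Cd80, Cd86, Icosl, Cd274, Pdcd1lg2 and Vtcn1.

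Icosl lies 25757 bases from Aire, the targeted gene, and the genes in between and around it were compared after the values had been seen. Aire itself had a log2 ratio of 1.54 with 0.1 FPKM added. The gene between them, Dnmt3l, a cofactor of DNA methyltransferases, stood at 25.7 and 112 FPKM, with a log2 ratio of 2.11 with 0.1 FPKM added. On the far side of Aire, the phosphofructokinase gene Pfkl stood at 27.8 and 90.9 FPKM, with a log2 ratio of 1.71. Within 200 kb of Icosl, 13 genes had a row, and 4 adjacent ones were higher, Pfkl, Aire, Dnmt3l and Icosl. Over all genes 7.09% were higher and 20.5% lower. The window was centred on Icosl, which with Aire was known to be higher before the window was examined. The other 9 had log2 ratios between -0.0044 and 0.99 and were neither higher nor lower, with Trpm2 at 1.87 and 3.81 FPKM the closest to 2-fold. The nearest gene on the other side, D10Jhu81e, stood at 49.1 and 77.8 FPKM. Icosl equalled 0.405 of Aire in the library labelled WT, against 0.400 in the one labelled Aire-KO. The annotated extents of Aire and Dnmt3l overlap, and reads there cannot be told apart without the strand, and whether counting used it is not given.

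**Figure D3:**
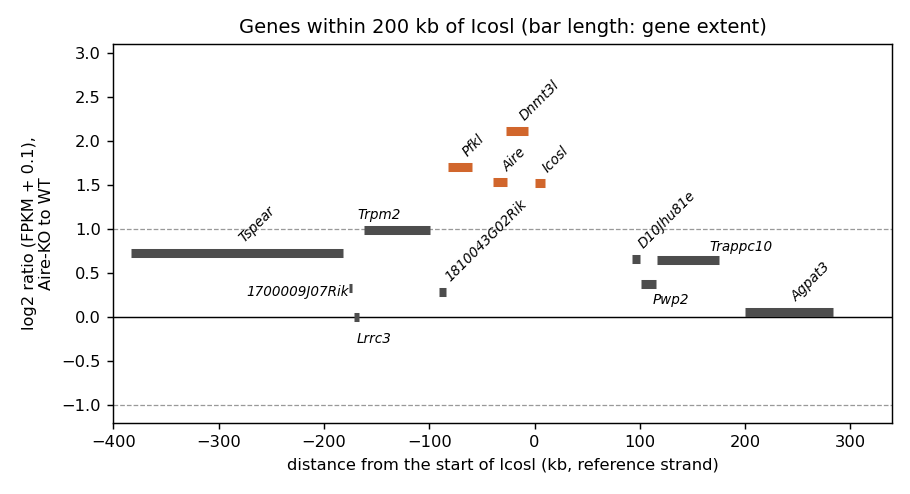
Log2 ratio (FPKM + 0.1, library labelled Aire-KO to library labelled WT) of the 13 genes within 200 kb of Icosl against the distance from its start in kb; each bar spans a gene, and dashed lines mark 2-fold. The 4 adjacent genes in orange, Pfkl, Aire, Dnmt3l and Icosl, lie between 1.52 and 2.11, and the other 9 lie under the upper dashed line.

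Of the ligands of PD-1, Cd274 (chromosome 19, 29367438 to 29388094), which encodes PD-L1, measured 71.8 FPKM (70.5 to 73.1) in the library labelled WT, against 37.0 FPKM (36.2 to 37.9) in the one labelled Aire-KO. The log2 ratio was -0.95 (-0.998 to -0.91), just short of 2-fold. Centred on the median of all genes the ratio with 0.1 FPKM added became -1.01, and with equal FPKM sums -1.03, both past the 2-fold rule. Cd274 overlaps Plgrkt, a plasminogen receptor gene at 148 and 84.9 FPKM (log2 ratio -0.80), and 12.4% of its 50-base stretches occur in transcripts of other genes. Pdcd1lg2 (chromosome 19, 29410919 to 29472927), which encodes PD-L2 and lies 22823 bases from Cd274, stood at 16.1 FPKM (15.2 to 17.1) and 19.2 FPKM (18.2 to 20.1). Its log2 ratio was 0.25 (0.14 to 0.36). These adjacent genes thus went different ways, and Cd274 exceeded Pdcd1lg2 by 4.46-fold and 1.93-fold.

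Vtcn1 (chromosome 3, 100825459 to 100896922) encodes B7-H4, an inhibitory ligand found on some epithelia. It measured 1.30 FPKM (1.10 to 1.53) in the library labelled WT, against 0.0527 FPKM (0.0211 to 0.108) in the one labelled Aire-KO. These values rest on 150 and 7 fragments. The log2 ratio was -4.62 (-5.97 to -3.55), or -3.20 with 0.1 FPKM added. Lower genes were common among all genes compared, at 20.5%.

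Cd200 (chromosome 16, 45382135 to 45409053) encodes a ligand that restrains myeloid cells through its receptor. It stood at 10.7 FPKM (10.1 to 11.4) and 17.9 FPKM (17.1 to 18.6), a log2 ratio of 0.73 (0.63 to 0.84), short of 2-fold. The receptor gene Cd200r1 stood at 0.483 and 0.0965 FPKM, under the minimum of the comparison.

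In order of level, the library labelled WT had Icosl first, followed by Cd80 and Cd274, whose intervals overlapped. Then came Pdcd1lg2 and Cd86, which overlapped, and Ctla4, Cd200 and Lag3, where each overlapped the next. Vtcn1 and Cd28 came last. In the library labelled Aire-KO the order was Icosl, Cd80, Ctla4, Cd274, then Pdcd1lg2, Cd200 and Lag3, where each overlapped the next, then Cd86, Cd28 and Vtcn1. Ctla4 thus stood in 6th place in the library labelled WT, against 3rd place in the one labelled Aire-KO.

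The genes whose pair of values lay closest to that of Ctla4, by distance on the log2(FPKM + 0.1) scale over the 2 libraries, were Syn2 (11.1 and 54.5 FPKM), Rad50 (14.6 and 55.8 FPKM), Slc6a7 (16.9 and 64.3 FPKM), Pitpnc1 (10.8 and 50.4 FPKM) and Rpl26 (15.5 and 55.9 FPKM). The distances ran from 0.61 for Syn2 to 0.75 for Rpl26, and all 5 had lower ratios than Ctla4. A likeness over 2 libraries is a description of these pairs of values only.

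Ctla4 is best known from T cells, above all regulatory T cells, and thymocytes could be caught in a thymic sort. Of 17 T cell and thymocyte markers 16 reached the minimum, 7 were lower and none was higher, against 20.5% and 7.09% over all genes, and the summed level was 73.5 and 56.8 FPKM. Cd3e, a subunit of the T cell receptor complex, stood at 0.913 and 0.583 FPKM, Cd3g at 7.63 and 2.73 FPKM, and the kinase gene Lck at 9.83 and 4.46 FPKM. Cd3g is named after its values were seen. Among the 16 at the minimum, the lowest ratios were those of Cd2 (3.29 and 1.02 FPKM) and Zap70 (2.39 and 0.737 FPKM), and the highest those of Thy1 (16.4 and 25.6 FPKM) and Rag1 (0.546 and 0.783 FPKM). Ctla4 equalled 12.2 times Cd3e in the library labelled WT, against 143 times in the one labelled Aire-KO. Cd3e is a weak marker here, on 55 and 40 fragments, and against the stronger Lck or Thy1 the multiple would be smaller. The part of T cells in the Ctla4 values was not tested.

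Of 5 regulatory T cell markers 4 reached the minimum and none was higher or lower, against 7.09% higher and 20.5% lower over all genes. The summed level of the 5 was 21.8 and 26.4 FPKM. Foxp3, which defines regulatory T cells, was under the minimum and near 0 at 0.0386 and 0.0447 FPKM, on 6 and 9 fragments. Il2ra stood at 13.6 and 19.5 FPKM, Tnfrsf18 at 6.49 and 5.11 FPKM, Ikzf4 at 0.957 and 0.925 FPKM and Ikzf2 at 0.646 and 0.786 FPKM. In the plot of receptor genes above these markers, Ctla4 is the rightmost gene in the library labelled Aire-KO. In bulk RNA a change in the number of expressing cells and a change in RNA per cell cannot be told apart.

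**Figure D4:**
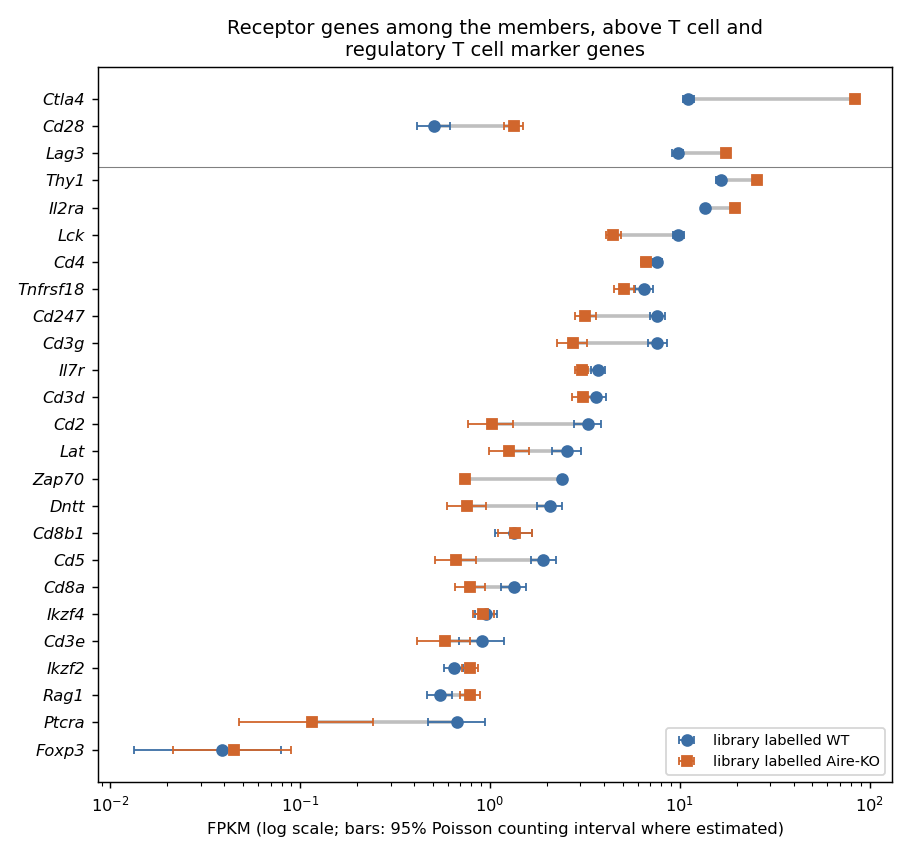
FPKM on a log axis of Ctla4, Cd28 and Lag3 (above the line) and of T cell and regulatory T cell markers (below it) in the library labelled WT (circles) and the library labelled Aire-KO (squares), with 95% Poisson counting intervals where fragments could be estimated. Ctla4 reaches 83.4 FPKM in the library labelled Aire-KO, and Foxp3 stays under 0.1 FPKM in both. Markers go both ways: Cd3g, Lck and Zap70 lie further left in the library labelled Aire-KO, and Thy1, Rag1, Il2ra and Ikzf2 further right.

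Dendritic cells, macrophages and B cells also carry B7 ligands. Of 15 dendritic cell and macrophage markers 11 reached the minimum, 8 were lower and none was higher, against 20.5% lower and 7.09% higher over all genes, with a summed level of 754 and 495 FPKM. Lyz2 stood at 676 and 436 FPKM, Itgam at 9.40 and 0.614 FPKM, Cd68 at 24.1 and 33.1 FPKM, and Zbtb46 at 9.13 and 15.02 FPKM. Cd209a stood at 2.91 FPKM in the first library and was listed at 0 in the second. The summed level, mostly from Lyz2, was lower in the library labelled Aire-KO, while Cd68 and Zbtb46 had ratios above 0. The part of these cells in the members' values was not tested. Of 7 B cell markers 6 reached the minimum, Pax5 was higher (0.621 and 1.44 FPKM) and Cd79a lower (2.13 and 0.0957 FPKM), and the summed level was 131 and 186 FPKM, mostly from Blnk (87.8 and 145 FPKM) and Cd79b (37.1 and 37.8 FPKM). Ms4a1 stood at 1.60 and 1.19 FPKM.

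Of 13 mTEC markers, 12 were neither higher nor lower and Aire was higher, against 7.09% higher and 20.5% lower over all genes. H2-Aa and H2-Ab1, whose protein products bind LAG-3, stood at 8398 and 11948 FPKM and at 7283 and 10067 FPKM. Krt8 stood at 1169 and 1487 FPKM, the claudin genes Cldn4 at 582 and 309 FPKM and Cldn3 at 212 and 148 FPKM, and Tnfrsf11a, which encodes RANK, at 25.3 and 47.0 FPKM. Of 4 cortical epithelial markers none was higher or lower, against the same 7.09% and 20.5% over all genes. The cortical proteasome subunit gene Psmb11 stood at 2.05 and 1.52 FPKM. Ctsl stood at 177 and 174 FPKM, Cd83 at 20.1 and 33.9 FPKM, and Prss16 at 19.7 and 23.1 FPKM.

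Of 14 other genes of the B7 and CD28 families, 12 had a row and 9 reached the minimum. Among these 1 was higher, 2 were lower and 6 were neither, with a median log2 ratio of -0.28, against 7.09% higher, 20.5% lower and a median of 0.05 over all genes. The higher gene was Btn2a2, a butyrophilin that inhibits T cells, at 1.86 and 4.34 FPKM. The lower genes were Pdcd1, which encodes PD-1, at 1.22 and 0.0210 FPKM (101 and 2 fragments), and the butyrophilin-like gene Btnl6 at 13.8 and 4.78 FPKM. PD-1 transcripts were thus scarce in both libraries, and more so in the one labelled Aire-KO, while its ligand genes Cd274 and Pdcd1lg2 were scarce in neither.

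The neighbours of Btnl6 by name stood at 30.5 and 28.7 FPKM for Btnl1, 18.0 and 14.8 FPKM for Btnl2, and 9.29 and 4.81 FPKM for Btnl4. Cd276, which encodes B7-H3, stood at 5.60 and 5.90 FPKM, and Vsir, which encodes the checkpoint protein VISTA, at 3.47 and 2.31 FPKM. Under the minimum were the inhibitory receptor gene Btla (0.637 and 0.138 FPKM), the milk fat globule protein gene Btn1a1 (0.653 and 0.0788 FPKM) and Btnl9 (0.0278 and 0.0322 FPKM). Near copies among the butyrophilin-like genes can share reads, so their values are uncertain.

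**Figure D5:**
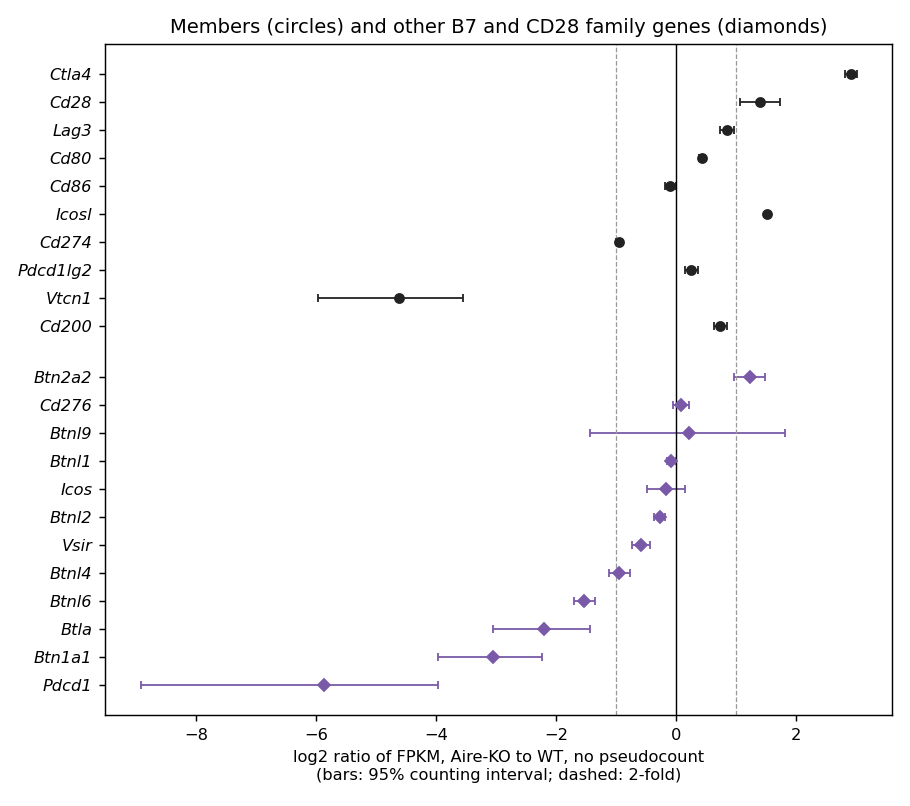
Log2 ratio of FPKM (library labelled Aire-KO to library labelled WT, no pseudocount) of the 10 members (circles) and 12 other B7 and CD28 family genes (diamonds), with 95% counting intervals as bars and dashed lines at 2-fold. Ctla4 lies at 2.91, the highest of the 22, and Pdcd1 and Vtcn1 lie furthest to the left with wide intervals.

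Receptors and ligands of other inhibitory pathways had 7 lower and no higher genes among 15 that reached the minimum, with a median log2 ratio of -0.93. Over all genes 20.5% were lower and 7.09% higher, with a median of 0.05. The most expressed were Lgals9, a galectin gene (144 and 76.7 FPKM), Cd47 (62.3 and 53.5 FPKM), which restrains phagocytes, and the adhesion gene Nectin2 (55.4 and 22.9 FPKM), a ligand of TIGIT. Among these 15 genes the lowest ratios were those of Fgl1 (1.45 and 0.136 FPKM), which encodes a ligand of LAG-3, and Ceacam1 (7.40 and 1.05 FPKM). Lgals3, whose product also binds LAG-3, stood at 40.3 and 7.58 FPKM, so both of these ligand genes were lower while Lag3 was not. The highest ratios were those of Tnfrsf14 (14.3 and 22.6 FPKM) and Nectin3 (22.3 and 26.5 FPKM). Lgals3 and Cd200r1 are named after their values were seen.

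Of 14 genes whose products move or signal with CTLA-4 and CD28, 13 reached the minimum, 2 were lower and none was higher, near the 20.5% lower and 7.09% higher over all genes. Lrba, which protects CTLA-4 from degradation, stood at 14.1 and 11.4 FPKM, and Ap2m1, part of the adaptor that takes CTLA-4 up from the surface, at 10.9 and 17.7 FPKM. The lower genes were Vav1 (21.6 and 6.78 FPKM) and Prkcq (1.20 and 0.423 FPKM), which act downstream of CD28. The most expressed were Ppp2r1a (115 and 123 FPKM), Rab11a (99.7 and 67.8 FPKM) and Ap1m1 (25.0 and 30.4 FPKM). The highest ratios were those of Ap2m1 and Pik3r1 (7.88 and 12.2 FPKM), both short of 2-fold. Lrba is named after its values were seen.

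Of 17 genes of the NF-kappaB and NFAT pathways, all 17 reached the minimum, 1 was lower and none was higher, with a median log2 ratio of 0.29. The shares over all genes were 20.5% lower and 7.09% higher, and their median was 0.05. Nfkbia stood at 1238 and 1364 FPKM, Nfkb2 at 168 and 268 FPKM and Relb at 127 and 232 FPKM. The ratios nearest to 2-fold upward were those of Traf6 (18.8 and 36.9 FPKM) and Nfatc2 (11.2 and 20.6 FPKM). The lower gene was Nfkbiz (58.9 and 22.4 FPKM), and Nfatc1 stood at 17.2 and 9.78 FPKM.

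Among the other genes next to the members, Rln1, a relaxin gene beside Cd274, was lower (10.5 and 0.385 FPKM), as was Gm609 beside Cd200 (0.872 and 0.208 FPKM). The genes on either side of Cd80 (Adprh, 50.9 and 58.3 FPKM, and Timmdc1, 11.2 and 10.5 FPKM) and of Cd86 (Casr, 8.12 and 7.23 FPKM, and Ildr1, 36.7 and 24.0 FPKM) were neither. Raph1 beside Cd28 (3.75 and 4.34 FPKM), C030046E11Rik beside Pdcd1lg2 (6.89 and 6.74 FPKM), Atg3 beside Cd200 (37.1 and 33.6 FPKM), and Man1a2 and Trim45 beside Vtcn1 (5.29 and 5.67 FPKM, and 1.12 and 0.617 FPKM) were also neither. Of the 20 genes next to a member, some of them members themselves, 3 were higher, 2 lower and 15 neither. Over all genes 7.09% were higher and 20.5% lower. The 3 were Ctla4 and Cd28, both members already counted as higher, and Dnmt3l.

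The authors' deposited table gave a q of 0.125 for Ctla4 and of 0.586 for Icosl, and larger ones for the other 8 members. In the authors' deposited table none of the 10 members had a q below 0.05. Only 70 of all 23997 gene rows did, so most lists of this size would hold none. Those values compare 2 libraries and not 2 genotypes.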

How the data were processed

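Values per gene and per isoform were deposited by the authors as FPKM, beside a p-value and q-value of their own. The tools were TopHat2 and Cuffdiff on mm10, per the submitters' processing notes. Not given in the sources used here: versions, annotation release, scaling between libraries, use of strand. Libraries came from a stranded mRNA kit, per the labels' protocols. In 5 gene rows the authors' tool gave no estimate because of high coverage, and these were treated as missing.

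Ratios are log2 of FPKM in the library labelled Aire-KO over FPKM in the library labelled WT. A gene was called higher or lower at 2-fold on FPKM + 0.1, where its mean reached 0.5 FPKM. The pseudocount understates the change of low genes, and the rule is no test. A gene nearly absent from either library can reach the mean through the other alone, as Vtcn1, Pdcd1 and Tnfsf4 did. Calls of such genes, and list counts that hold them, follow in part from the minimum.

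Fragments were estimated from the steps between low values of genes with 1 isoform of 2000 bp or more (GENCODE M21 lengths). This gave totals of 47400000 and 55200000 fragments and length offsets of 190 and 210 bp. Of 188 and 455 low values, 78.7% and 79.8% lay within 0.1 of a whole multiple, in a fit to these same values. Intervals are exact Poisson for levels and exact conditional binomial for ratios (scipy 1.17.1), only where every isoform has at least 500 bp. PCR copies were not marked by molecular identifiers, so these intervals leave out all but counting error. The calls and intervals were tried on simulated Poisson counts of genes with 1 isoform. Such counts share the assumption of the intervals, so they cannot speak to PCR copies or spread between libraries.

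The members and all lists were chosen with earlier results of these data known. Genes were named by a rule: the members and Aire; every B7 and CD28 family gene; in other lists the 3 most expressed, the 2 highest and 2 lowest ratios, and defining markers near 0; the nearest expressed gene on either side of each member; and the 5 genes nearest to Ctla4. Of the listed symbols, Tmigd2 and Hhla2 had no row. Older symbols were matched through the RefSeq table of GRCm38.p6. Promoters came from RefSeq and matched 7 of 10 members. Alternatives were other pseudocounts, minimums, folds and scalings, and sums of isoforms.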

Additional observations from a re-analysis of the deposited data

How the results depend on the processing

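Under the 6 alternatives tried, Ctla4 had log2 ratios between 2.80 (1 FPKM added) and 2.91 (0.01 FPKM added). Its direction could not change under any of them. Added FPKM cannot reverse a ratio, and the scalings shift that of Ctla4 by less than 0.08 on the log2 scale. The count of higher members was 5 at 1.5-fold and 1 at 4-fold, against 3. The count of lower members was 0 once a mean of 2 FPKM was required, since Vtcn1 is under that minimum, and 2 at 1.5-fold, with ratios centred on the median of all genes, and with equal FPKM sums, against 1. The added gene under both scalings was Cd274. Scaling to equal FPKM sums shifts ratios by -0.08 on the log2 scale before the pseudocount is added, which weighs differently on scaled values, so Vtcn1 went from -3.20 to -3.72. Shares of Ctla4 isoforms were the same by FPKM and by fragments, as they had to be with NM_001281976 listed at 0 in both libraries. The sum of isoforms, 1 of the 6 alternatives for Ctla4, likewise could not change its ratio. No paired analysis was possible because each genotype has 1 library, and for the same reason no library could be left out. Depth limits Vtcn1, with 7 fragments in the library labelled Aire-KO, and Pdcd1, with 2.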

Other observations

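The TNF superfamily holds costimulatory ligands and receptors that act beside CD28. Of 15 such genes 13 reached the minimum, 6 were lower, none was higher and 7 were neither, with a median log2 ratio of -0.50. Over all genes compared 20.5% were lower and 7.09% higher, with a median of 0.05. The most expressed were Cd40 (113 and 169 FPKM), the receptor through which T cells license presenting cells, and the ligand genes Tnfsf9 (67.4 and 106 FPKM) and Cd70 (58.5 and 80.4 FPKM). Tnfrsf9, which encodes the receptor of the Tnfsf9 product, stood at 36.4 and 50.7 FPKM, and Tnfrsf4, which encodes OX40, at 17.5 and 26.7 FPKM. All 5 had log2 ratios above 0 and below the 2-fold rule.

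The lower genes were Tnfsf4 (2.11 and 0.103 FPKM), which encodes the OX40 ligand, Tnfsf14 (2.07 and 0.195 FPKM), Tnfsf18 (2.90 and 0.614 FPKM), Tnfrsf25 (1.19 and 0.166 FPKM), Cd27 (1.56 and 0.644 FPKM) and Tnfrsf8 (49.8 and 18.2 FPKM). Tnfrsf8, which encodes CD30, was the only lower gene at a mean of 2 FPKM or more, where the median log2 ratio of the 8 remaining genes was 0.47 and 14.3% of all genes were lower. Tnfrsf8, Tnfrsf9, Tnfsf18, Tnfrsf25 and Cd27 are named here after their values were seen.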
